A study of Homo sapiens with 6 samples.

Results

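The semaphorins, their plexin receptors, the Eph receptors and the ephrins were examined in U87MG cells that had received either a control lentivirus (3 libraries, U87MG-control) or a lentivirus carrying LMO2 (3 libraries, U87MG-LMO2). The members were chosen by gene symbol alone, with no measured value, and 46 of the 27257 genes with a line in any library table matched. They comprised 18 semaphorins, 9 plexins, 11 Eph receptors and 8 ephrins. U87MG is an established human glioblastoma line grown here in serum-containing medium, LMO2 encodes a LIM-domain adaptor protein, and both infections lasted 24 h. The vectors that the methods name for human LMO2 carry a CMV promoter, and nothing in the labels says that the 3 libraries of a group came from separate cultures, so p values measure the spread between these libraries, which may be technical.

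Semaphorins are secreted or membrane-bound guidance cues that act mostly through plexins, in class 3 together with neuropilins. Eph receptors are receptor tyrosine kinases, and their ephrin ligands are themselves held on the surface of the neighbouring cell, by a GPI anchor in ephrin-A and by a transmembrane segment in ephrin-B. Both systems are best known from growing axons, and in gliomas they are studied for their part in cell migration, adhesion and vessel growth.

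Depth ranged from 11428432 to 17892955 expected counts per library. For LMO2 itself, U87MG-control had 5 to 11 counts and U87MG-LMO2 had 4503 to 14570, a count that does not separate vector transcripts from endogenous ones. U87MG-LMO2 replicate 3 held the most LMO2, and it stood apart from its group. Per gene, the chi-square statistic between U87MG-LMO2 replicates was 37.6 and 51.5 for the pairs with replicate 3 and 7.63 for the other pair, against 2.24 to 10.6 between U87MG-control replicates, where sampling noise alone gives about 1. Of 10 glial and glioma markers, 5 (NES, VIM, CD44, CHI3L1 and SLC1A3) had a mean of at least 1 FPKM in either group, whereas GFAP, OLIG2, SOX2, FABP7 and S100B were below it, the last with at most 3 counts in any library. The summed marker level was 5688 to 5775 FPKM in U87MG-control and 5747 to 6372 FPKM in U87MG-LMO2. Of 6 endothelial markers PECAM1 alone reached a group mean of 1 FPKM, at 1.05 ± 0.0265 FPKM in U87MG-control and 0.890 ± 0.165 FPKM in U87MG-LMO2 (SD, n = 3). The endothelial list summed to 2.26 to 2.35 and 1.84 to 2.22 FPKM, and CDH5 had at most 3 counts in any library. Of the neuron list, MAP2, SNAP25 and TUBB3 reached that mean. The list summed to 198 to 238 FPKM in U87MG-control and 251 to 367 FPKM in U87MG-LMO2. Most of this sum was TUBB3, at 207 ± 22.0 and 279 ± 61.6 FPKM (SD, n = 3). MAP2 was lower in U87MG-LMO2 (2.86 ± 0.626 and 1.30 ± 0.591 FPKM), and SNAP25 stood at 14.0 ± 1.78 and 13.5 ± 1.58 FPKM. Of the myeloid list CSF1R alone reached a group mean of 1 FPKM (summed 2.02 to 2.38 and 3.29 to 4.02 FPKM). Of the oligodendrocyte list MOG alone reached it (3.35 to 3.99 and 1.55 to 3.59 FPKM). The part of these marker genes in the results below was not tested. These are bulk libraries, in which fewer cells with a transcript and less of it per cell cannot be told apart.

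Levels were compared between genes on the FPKM scale, which is per gene length. A member with a mean of at least 1 FPKM in either group was called expressed, and 29 of the 46 were. Of these, 11 were semaphorins, 7 were plexins, 6 were Eph receptors and 5 were ephrins. At the other end, SEMA3D, PLXNA4, EPHA3, EPHA6, EPHA8, EFNA2 and EFNB3 had at most 3 counts in every library, which is also the limit that a count of 0 allows. These limits cover counting error only.

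**Figure D1:**
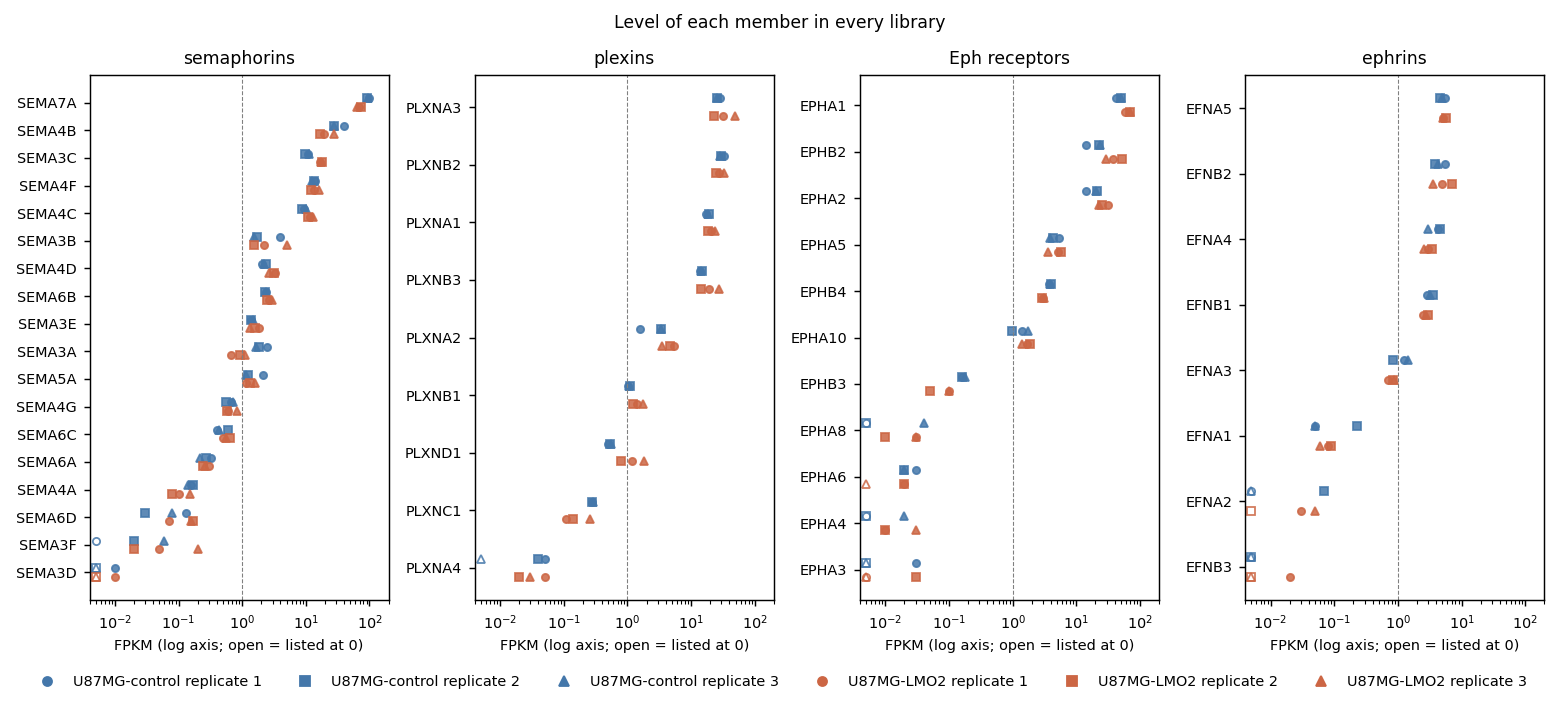
Level of all 46 members in FPKM (log axis) in each of the 6 libraries, by family and ordered by mean level. Blue is U87MG-control, orange is U87MG-LMO2, the marker shape gives the replicate, open markers are listed at 0, and the dashed line is at 1 FPKM. SEMA7A, EPHA1 and the overlapping plexins PLXNA3 and PLXNB2 lie at the top of their families, and the ephrins stay below 10 FPKM.

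SEMA7A, a GPI-anchored semaphorin that binds plexin C1 and integrin beta1, was the most abundant member in U87MG-control, whereas in U87MG-LMO2 it overlapped the receptor EPHA1. SEMA7A measured 97.96, 90.40 and 94.56 FPKM in U87MG-control and 67.79, 74.79 and 62.67 FPKM in U87MG-LMO2. SEMA7A made up 54.7% ± 2.06 of the summed semaphorin FPKM in U87MG-control and 46.7% ± 5.43 in U87MG-LMO2 (SD, n = 3). Its receptor PLXNC1 stood at only 0.283 ± 0.00577 and 0.170 ± 0.0794 FPKM (SD, n = 3), whereas ITGB1, the integrin beta1 chain, stood at 289 ± 11.9 and 269 ± 33.7 FPKM. SEMA4B, a transmembrane class 4 semaphorin, followed at 31.6 ± 6.54 and 21.2 ± 5.79 FPKM. SEMA4F, SEMA3C and SEMA4C then lay between 8.83 and 17.9 FPKM in single libraries. In U87MG-control, SEMA4F (13.3 ± 0.759 FPKM) was above SEMA3C (10.6 ± 0.781 FPKM) and SEMA3C overlapped SEMA4C (9.41 ± 0.682 FPKM). In U87MG-LMO2, SEMA3C (17.4 ± 0.498 FPKM) was above SEMA4F (13.9 ± 2.02 FPKM) in every library. The other expressed semaphorins (SEMA3A, SEMA3B, SEMA3E, SEMA4D, SEMA5A and SEMA6B) had group means from 0.900 to 3.02 FPKM, and SEMA3F, SEMA4A, SEMA4G, SEMA6A, SEMA6C and SEMA6D were not expressed by this rule.

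Plexins are single-pass receptors whose cytoplasmic part acts on small GTPases of the Ras and Rap type. PLXNB2, a receptor of class 4 semaphorins, measured 32.57, 29.10 and 28.07 FPKM in U87MG-control and 27.22, 24.79 and 33.37 FPKM in U87MG-LMO2. PLXNA3, which serves class 3 semaphorins with neuropilins, measured 28.31, 25.92 and 25.36 FPKM and then 31.91, 22.95 and 48.82 FPKM. These leading plexins overlapped in U87MG-control and again in U87MG-LMO2, so their order is not resolved. PLXNA1 (18.3 ± 0.896 and 20.8 ± 2.87 FPKM) and PLXNB3 (14.5 ± 0.540 and 20.3 ± 6.53 FPKM) came next. PLXNA2, PLXNB1 and PLXND1 had group means between 0.530 and 4.51 FPKM. The neuropilins, which class 3 semaphorins need as co-receptors, were both abundant, with NRP1 at 148 ± 15.1 and 142 ± 4.33 FPKM and NRP2 at 47.5 ± 5.57 and 52.8 ± 17.3 FPKM.

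Among the Eph receptors, EPHA1 measured 42.67, 49.58 and 50.09 FPKM in U87MG-control and 57.79, 69.96 and 69.94 FPKM in U87MG-LMO2. EPHB2 and EPHA2 overlapped in U87MG-control at 20.3 ± 5.16 and 18.7 ± 3.75 FPKM (SD, n = 3). In U87MG-LMO2, EPHB2 stood at 39.6 ± 11.2 FPKM and EPHA2 at 26.4 ± 4.58 FPKM. EPHA1 alone made up 49.4% of the summed Eph FPKM in U87MG-control and 46.8% in U87MG-LMO2. EPHA5, EPHB4 and EPHA10 had group means between 1.37 and 4.76 FPKM, and EPHB3 and EPHA4, a receptor that binds both ephrin classes, were not expressed.

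The ephrins were low and near to each other. EFNA5 (4.52 to 5.50 and 5.11 to 5.66 FPKM), EFNB2 (4.50 ± 0.829 and 5.21 ± 1.82 FPKM), EFNA4 (3.94 ± 0.804 and 2.99 ± 0.422 FPKM) and EFNB1 (3.20 ± 0.370 and 2.75 ± 0.250 FPKM) led the family, and each overlapped its neighbour in this order in U87MG-control. EFNA3 stood at 1.17 ± 0.319 FPKM in U87MG-control and 0.810 ± 0.0964 FPKM in U87MG-LMO2, and EFNA1 was not expressed.

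As sums over a family, the Eph receptors measured 82.1, 103 and 104 FPKM in U87MG-control and 137, 157 and 130 FPKM in U87MG-LMO2. The groups did not overlap, and the exact 2-sided permutation test gave p = 0.1, the smallest value that 3 against 3 libraries can give (adjusted p = 0.2 over the 4 families). The semaphorins measured 187, 163 and 168 FPKM in U87MG-control and 142, 145 and 154 FPKM in U87MG-LMO2. These groups did not overlap either (exact permutation p = 0.1, adjusted p = 0.2), with every U87MG-LMO2 library below every U87MG-control library. The sum follows its most abundant members, SEMA7A (group means 94.3 and 68.4 FPKM) and SEMA4B (31.6 and 21.2 FPKM). Most single semaphorins went the other way. In the comparison per gene below, 11 of the 15 tested had a log2 fold change above 0 and 4 below, with a median of 0.15. The plexin sum overlapped between groups (exact permutation p = 0.4), and 141 FPKM in U87MG-LMO2 replicate 3 stood above the 87.2 to 107 FPKM of all other libraries. The ephrin sum was 17.9 ± 1.23 FPKM in U87MG-control and 17.2 ± 2.69 FPKM in U87MG-LMO2 (SD, n = 3, exact permutation p = 0.7).

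**Figure D2:**
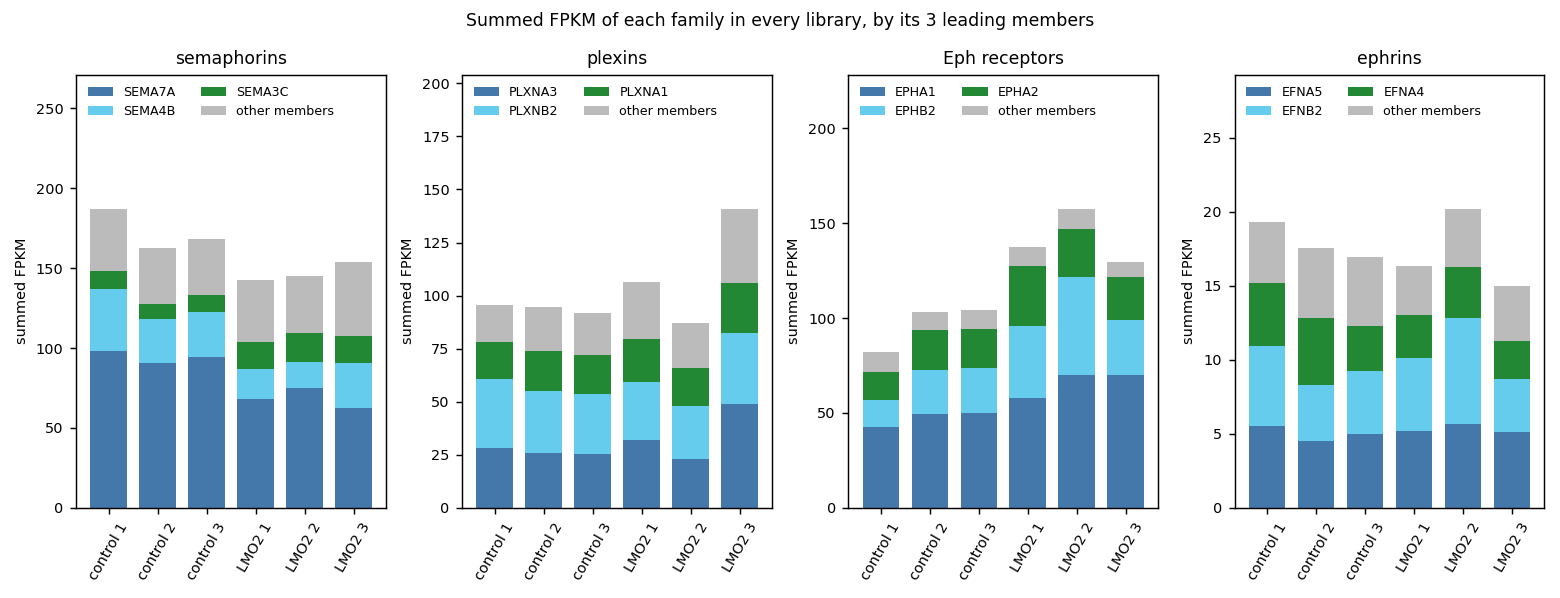
Summed FPKM of each family in every library, stacked as the 3 leading members and all other members, with bars starting at 0. The Eph sum is 129.6 FPKM or more in every U87MG-LMO2 library and 104.0 FPKM or less in every U87MG-control library, and the plexin sum is highest in U87MG-LMO2 replicate 3.

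The comparison of U87MG-LMO2 with U87MG-control was then made per gene on read counts. Of the 46 members, 34 passed the filter on low counts and 12 did not (SEMA3D, SEMA3F, SEMA4A, PLXNA4, EPHA3, EPHA4, EPHA6, EPHA8, EPHB3, EFNA1, EFNA2 and EFNB3). At an adjusted p under 0.05 in edgeR, SEMA3C, EPHB2 and EPHA1 were higher in U87MG-LMO2, and SEMA3A and SEMA7A were lower. The 3 higher members were 8.82% of the tested members, where 4.72% of all tested genes were called higher, and the 2 lower members were 5.88%, where 2.75% of all tested genes were called lower. Whether these shares of few members differ from those of all genes was not tested. The median log2 fold change of the 34 members was 0.24, against -0.01 for all 16092 tested genes, with 23 members above 0 and 11 below. This median was 0.12 after a correction for GC content, 0.14 without U87MG-control replicate 2 and 0.10 without U87MG-LMO2 replicate 3. Every U87MG-LMO2 library lay above every U87MG-control library in normalised read count (CPM) for 11 of the 34 members (32.4%), against 17.5% of all tested genes, and below for 4 (11.8%), against 16.6%.

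**Figure D3:**
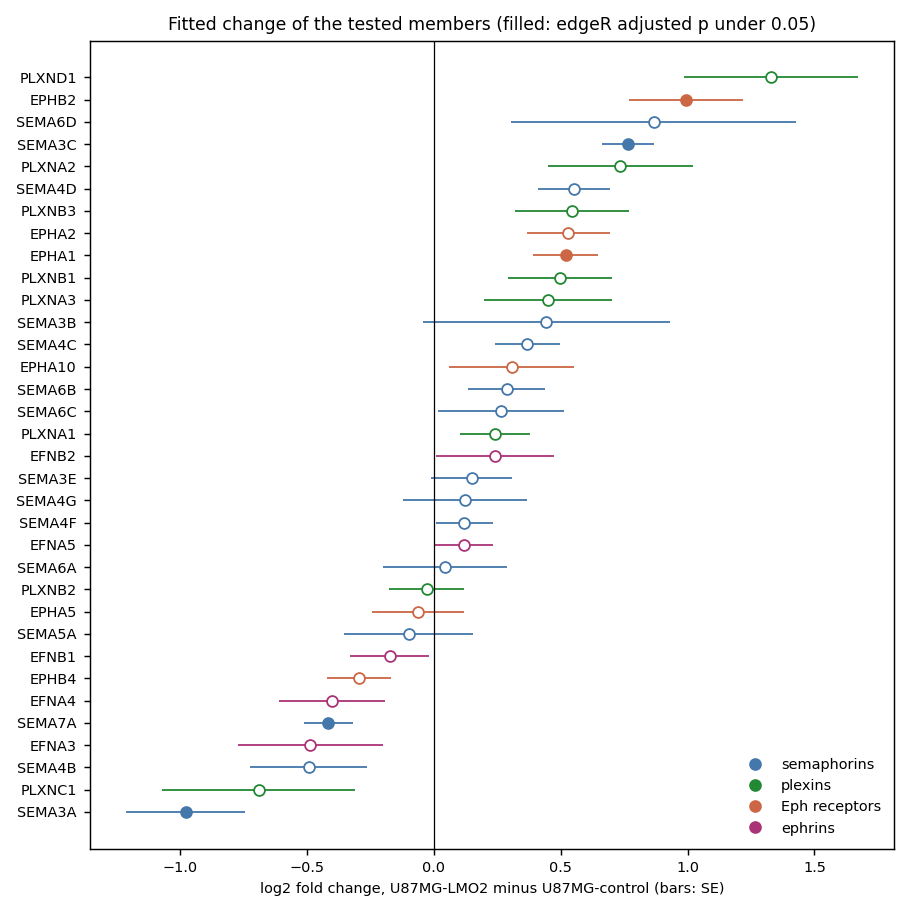
Fitted log2 fold change (U87MG-LMO2 minus U87MG-control) of the 34 tested members with its SE as a bar, coloured by family. Filled points have an edgeR adjusted p under 0.05. PLXND1 has the highest fitted value at 1.33 but is not filled, and SEMA3A has the lowest at -0.98.

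SEMA3C, a secreted class 3 semaphorin that signals through neuropilins with plexins such as plexin D1, rose. It measured 55.0, 48.5 and 55.6 CPM in U87MG-control and 84.7, 90.1 and 95.7 CPM in U87MG-LMO2. The groups were far apart, since the highest U87MG-control library was below the lowest U87MG-LMO2 library by more than the range of either group. The log2 fold change was 0.77 (SE 0.10), a 1.70-fold difference, with an edgeR adjusted p of 0.00705.

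SEMA3A, a class 3 semaphorin best known for collapsing growth cones through NRP1 and A-type plexins, moved the other way and fell. It measured 10.9, 7.45 and 6.58 CPM in U87MG-control and 3.42, 4.50 and 4.70 CPM in U87MG-LMO2. The groups did not overlap, and U87MG-control replicate 1 was the highest library. The log2 fold change was -0.98 (SE 0.24), and the edgeR adjusted p was 0.0422. On the per-length scale, SEMA3C exceeded SEMA3A by 5.49 ± 1.11 times in U87MG-control and by 20.1 ± 4.94 times in U87MG-LMO2 (SD, n = 3), a ratio that was looked at after the values of both were known.

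SEMA7A also fell. It measured 329, 304 and 319 CPM in U87MG-control and 227, 255 and 231 CPM in U87MG-LMO2, without overlap. The log2 fold change was -0.42 (SE 0.10), or 1.33-fold lower in U87MG-LMO2, with an edgeR adjusted p of 0.0367. It remained the most abundant semaphorin in all 6 libraries.

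The other 12 tested semaphorins did not pass the threshold in the edgeR comparison above, and DESeq2 called 1 of them, SEMA4D (adjusted p 0.0371). SEMA4D, the ligand of plexin B1, came closest. It measured 7.81, 9.42 and 8.55 CPM in U87MG-control and 13.0, 13.2 and 11.7 CPM in U87MG-LMO2, and its log2 fold change was 0.55 (SE 0.14, edgeR adjusted p 0.0506). SEMA4C, a ligand of plexin B2, had non-overlapping groups and a log2 fold change of 0.37 (adjusted p 0.115). SEMA4B, the second most abundant semaphorin, had a log2 fold change of -0.49 with an SE of 0.23 (adjusted p 0.217). SEMA3B varied widely within U87MG-LMO2, at 2.21, 1.56 and 4.99 FPKM. SEMA6D had a fitted value of 0.87 on at most 17.1 counts in a library, with an SE of 0.56.

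Both Eph receptors that passed the test rose. EPHA1 measured 142, 164 and 166 CPM in U87MG-control and 190, 234 and 253 CPM in U87MG-LMO2, without overlap. Its log2 fold change was 0.52 (SE 0.13), a 1.43-fold difference, with an edgeR adjusted p of 0.0451. Its antisense neighbour EPHA1-AS1 held 8.72 to 20.8 counts per library against 1633 to 4202 counts of EPHA1. Whether counting used the strand is not given in the sources used here, so reads of such a pair cannot be told apart.

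EPHB2, a receptor of the ephrin-B ligands, measured 70.0, 112 and 114 CPM in U87MG-control and 185, 252 and 155 CPM in U87MG-LMO2. All U87MG-LMO2 libraries were higher, and U87MG-control replicate 1 was the lowest of all. The log2 fold change was 0.99 (SE 0.23), a 1.99-fold difference, with an edgeR adjusted p of 0.0364. EPHB2 is among the 16 members with counts that were not whole (tolerance 0.005), so part of its reads was divided between features by estimate. EPHA2 is another of these members (in U87MG-control replicate 1, 807.49 counts for EPHB2 and 660.51 for EPHA2), as are PLXNA1, PLXNA2 and PLXNA3. Estimates within a family may therefore share reads, which was not tested.

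The other 4 tested Eph receptors were not called in the edgeR comparison above. DESeq2 called EPHA2 higher (adjusted p 0.0322), and edgeR with the GC-content correction called EPHB4 lower (0.0316). EPHA2 measured 57.3, 83.9 and 81.9 CPM in U87MG-control and 124, 102 and 96.7 CPM in U87MG-LMO2, and its log2 fold change was 0.53 (SE 0.16, edgeR adjusted p 0.0829). EPHB4, the main partner of EFNB2 in vessels, lay lower without overlap (3.66, 3.93 and 3.84 FPKM against 3.03, 2.85 and 3.14 FPKM), at -0.30 (SE 0.13, adjusted p 0.184). EPHA5 had a log2 fold change of -0.06 (SE 0.18). EPHA10, which lacks kinase activity, had one of 0.31 (SE 0.25).

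None of the 8 tested plexins passed the adjusted threshold in edgeR with the filter and all libraries as described. Of the 8, 4 had an unadjusted p under 0.05, as did 4143 of all 16092 tested genes. PLXND1 lay at the threshold. It was called by DESeq2 (adjusted p 0.00587) and by edgeR without a filter on low counts (0.0174) and with at least 10 counts in every library (0.0495). It was not called by limma (0.0868 and 0.0778), or by edgeR with upper-quartile scaling (0.0508) or with the replicate number as a block (0.0606). The edgeR fit with the GC-content correction did not call it either. Of the fits that left out 1 library, those without U87MG-LMO2 replicate 2 (0.0209) and replicate 3 (0.0368) called it. PLXND1, the receptor of SEMA3E and of SEMA3C with neuropilin, had the largest fitted change of the 34 tested members. It measured 2.52, 2.48 and 2.57 CPM in U87MG-control and 5.61, 3.68 and 9.70 CPM in U87MG-LMO2. The U87MG-control libraries were nearly equal, and U87MG-LMO2 replicate 3 was far above the other libraries of its group. The log2 fold change was 1.33 (SE 0.34), with an edgeR adjusted p of 0.0513.

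PLXNA2 measured 1.58, 3.43 and 3.42 FPKM in U87MG-control and 5.44, 4.62 and 3.48 FPKM in U87MG-LMO2, with a log2 fold change of 0.74 (SE 0.29, edgeR adjusted p 0.149). Here U87MG-control replicate 1 was the low library. PLXNC1 measured 1.13, 1.10 and 1.14 CPM and then 0.427, 0.545 and 1.09 CPM, with a log2 fold change of -0.69 (SE 0.38, edgeR adjusted p 0.292). PLXNB2 gave -0.03 (SE 0.15), PLXNA1 0.24 (SE 0.14), PLXNA3 0.45 (SE 0.25), PLXNB3 0.54 (SE 0.22) and PLXNB1 0.50 (SE 0.21). Of the 3 U87MG-LMO2 libraries, replicate 3 was the highest for 7 of the 8 tested plexins, and for 20 of the 34 tested members (58.8%), against 40.2% of all tested genes.

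**Figure D4:**
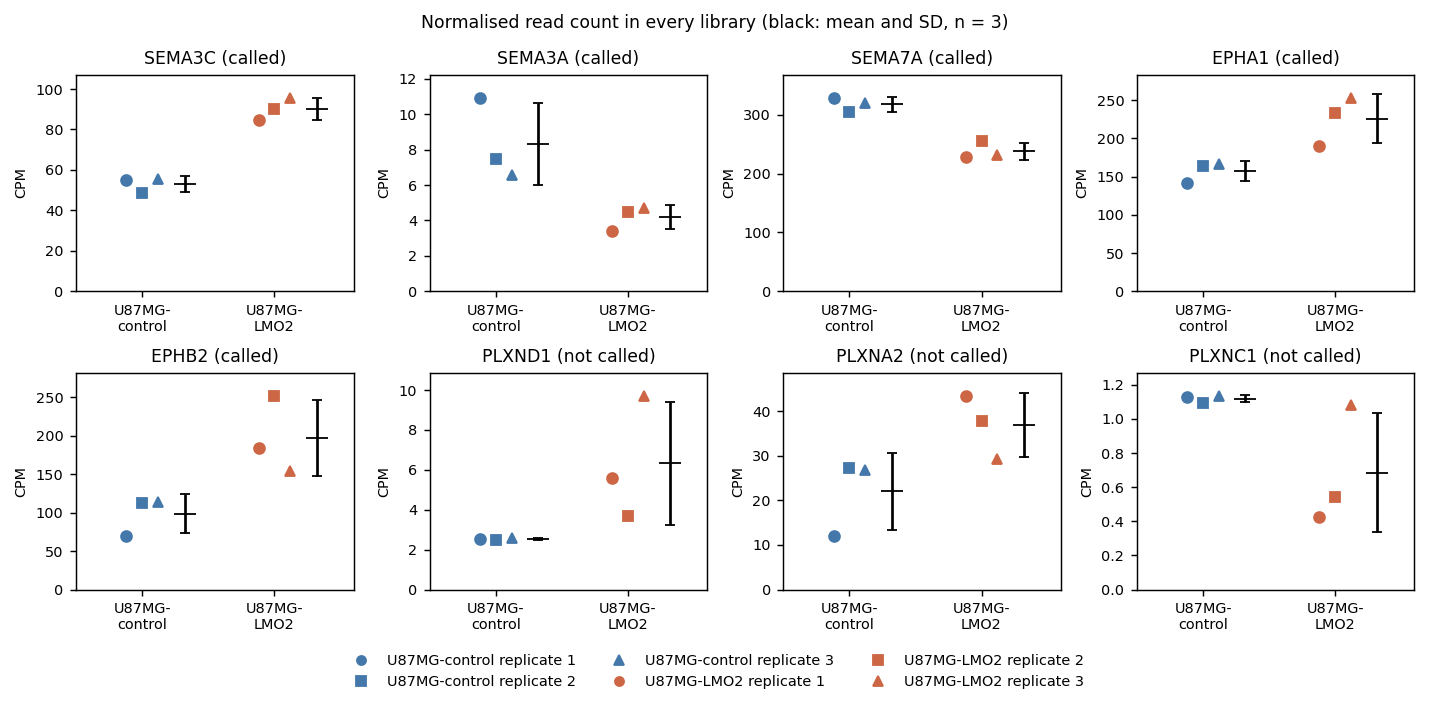
Normalised read count (CPM, axes from 0) in every library for the 5 called members and for PLXND1, PLXNA2 and PLXNC1, with the group mean and SD (n = 3) in black. The groups do not overlap in any of the 8 panels, and U87MG-LMO2 replicate 3 stands above its group for PLXND1 and PLXNC1.

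None of the 5 tested ephrins passed the adjusted threshold in any fit run, and all 5 overlapped between groups. With all libraries, 0 had an unadjusted p under 0.05 in edgeR, DESeq2 or limma, but after the GC-content correction 3 were lower at that level (EFNA3, EFNA4 and EFNB1, adjusted p 0.168 to 0.172). The log2 fold changes ran from -0.49 (SE 0.29) for EFNA3 to 0.24 (SE 0.23) for EFNB2, and EFNA5, the most abundant ephrin, gave 0.12 (SE 0.12). The difference between receptors and ligands was not tested.

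Promoters of the called members were read from the RefSeq table (GRCh38.p14), which matched 41 of the 46 members and did not match SEMA3A. They are shown because the study asks about STAT3, and LMO2 is known to act in complexes at E-box and GATA sites. Each is the 250 bases before the most upstream listed start whose following bases occur in a GENCODE transcript of the gene, written 5′ to 3′ on the gene's strand. Capitals mark matches, on either strand, to the E-box letters CANNTG, to GATA, and to the STAT letters TTCNNNGAA. The sequences are SEMA3C (chr7:80919052-80919301, minus strand), SEMA7A (chr15:74433959-74434208, minus strand), EPHA1 (chr7:143408857-143409106, minus strand) and EPHB2 (chr1:22710588-22710837, plus strand).
SEMA3C: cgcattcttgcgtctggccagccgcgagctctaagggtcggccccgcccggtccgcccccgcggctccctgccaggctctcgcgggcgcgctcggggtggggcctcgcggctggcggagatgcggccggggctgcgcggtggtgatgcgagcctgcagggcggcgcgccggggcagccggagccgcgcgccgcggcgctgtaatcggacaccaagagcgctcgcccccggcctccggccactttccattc
SEMA7A: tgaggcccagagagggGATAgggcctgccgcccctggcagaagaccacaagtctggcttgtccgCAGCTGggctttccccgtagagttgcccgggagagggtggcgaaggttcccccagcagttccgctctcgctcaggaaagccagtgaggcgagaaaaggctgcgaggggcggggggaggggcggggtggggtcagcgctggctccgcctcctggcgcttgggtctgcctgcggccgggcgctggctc
EPHA1: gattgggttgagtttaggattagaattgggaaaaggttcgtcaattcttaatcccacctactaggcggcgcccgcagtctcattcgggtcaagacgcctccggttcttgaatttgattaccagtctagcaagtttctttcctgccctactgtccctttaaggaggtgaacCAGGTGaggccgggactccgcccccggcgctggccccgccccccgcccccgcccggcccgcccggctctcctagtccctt
EPHB2: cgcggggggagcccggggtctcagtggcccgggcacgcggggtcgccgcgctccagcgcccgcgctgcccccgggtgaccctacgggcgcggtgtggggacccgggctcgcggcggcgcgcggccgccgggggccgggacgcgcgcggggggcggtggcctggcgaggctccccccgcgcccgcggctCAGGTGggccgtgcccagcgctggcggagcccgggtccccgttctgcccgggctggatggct

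The SEMA3C window, of 77.6% GC, held no match to any of these letters. Another listed SEMA3C start, whose following bases were not found in such a transcript, had a window of 36.4% GC with 3 GATA matches. The window of another listed SEMA7A start held no match, so the matches depend on the start chosen. EPHA1 and EPHB2 each held 1 E-box match, and SEMA7A held 1 E-box and 1 GATA match. None of the windows shown held the STAT letters. These occurred in 4 of the 41 member promoters and in 6.78% of the 27305 promoters of the table, taken as the first listed of each gene. E-box letters occurred in 21 of the 41 and in 62.2% of all promoters, and GATA in 12 of the 41 and in 46.5%. For SEMA3C the first listed promoter is not the one shown but the one with GATA matches, so these counts do not cover the same windows. A match is a description of letters in this window and not a binding site.

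Partner and signalling genes outside the families were taken from lists written from general knowledge. Of 89 listed genes, 83 had a line and 72 were tested, of which 5 were called higher, 3 were called lower and 64 were not called (4.72% and 2.75% of all tested genes, as above). Among receptors and co-receptors, HSPG2, which encodes the heparan sulfate proteoglycan perlecan, rose from 7.20 ± 0.877 to 21.7 ± 8.12 FPKM (SD, n = 3, edgeR adjusted p 0.0133). CD72, a receptor of SEMA4D on B cells, rose from 0.663 ± 0.0404 to 1.30 ± 0.104 FPKM (edgeR adjusted p 0.0282). CD72 rested on 11 to 13 counts per U87MG-control library and 31 to 36 per U87MG-LMO2 library, and DESeq2 did not call it. NCAM1, a neural cell adhesion molecule, fell from 14.7 ± 0.671 to 8.97 ± 0.488 FPKM (adjusted p 0.00663). NRP1 and NRP2 had log2 fold changes of -0.02 and 0.18, and their adjusted p values were 0.930 and 0.639.

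Of the downstream genes, edgeR called 1 of the 22 tested in the semaphorin signalling list and 1 of the 25 tested in the Eph and ephrin signalling list. At an unadjusted p under 0.05, 3 of the 22 were lower and 0 higher, and 8 of the 25 were lower and 3 higher. In either direction, 4143 of all 16092 tested genes had such a p. For the Eph and ephrin signalling list, DESeq2 also called ABL1 higher and CBL and TIAM1 lower. PAK1, a kinase downstream of Rac, fell from 20.0 ± 0.745 to 12.8 ± 2.18 FPKM (SD, n = 3, edgeR adjusted p 0.0199), and YES1, a Src-family kinase, fell from 20.1 ± 2.21 to 13.2 ± 2.13 FPKM (adjusted p 0.0330). In the other guidance families, edgeR called 3 of 16 tested genes higher and 0 lower, where 4.72% and 2.75% of all tested genes were called. Of these 16, 4 were higher and 5 lower at an unadjusted p under 0.05, and DESeq2 called 4 higher and 1 lower (NEO1). RGMB, a repulsive guidance molecule and BMP co-receptor, rose from 11.7 ± 2.88 to 27.0 ± 4.81 FPKM (adjusted p 0.0108). NTN4, a secreted netrin, rose from 0.957 ± 0.0702 to 1.65 ± 0.118 FPKM (adjusted p 0.0287). UNC5B, a netrin receptor, rose from 1.41 ± 0.219 to 2.35 ± 0.425 FPKM (adjusted p 0.0494). Over all partner genes, leaving out any 1 U87MG-control library left at most 1 higher and at most 1 lower, and leaving out U87MG-LMO2 replicate 3 gave 8 higher and 15 lower.

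The calls of SEMA3C and of the other 4 members differed in how far they held. SEMA3C kept its call in all 6 fits that left out a library, with an edgeR adjusted p of at most 0.0488, and in every other alternative run. EPHA1, EPHB2 and SEMA3A lost theirs in 5 of these 6 fits, and SEMA7A in 4, with adjusted p values up to 0.161, 0.113, 0.145 and 0.156. The fit without U87MG-LMO2 replicate 3 kept all 5 and added EPHA2, PLXND1, SEMA4D and SEMA4B, which gives 6 members higher and 3 lower, where 7.97% and 6.72% of all tested genes were called. After a correction for GC content, SEMA3C (adjusted p 0.00464) and SEMA7A (0.0236) kept their calls, EPHB4 was called lower (0.0316), and EPHA1 (0.0712), EPHB2 (0.0702) and SEMA3A (0.0936) lost theirs. That fit thus called 1 member higher and 2 lower, where 3.49% and 2.49% of all tested genes were called. All 5 kept their direction in every alternative.

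**Figure D5:**
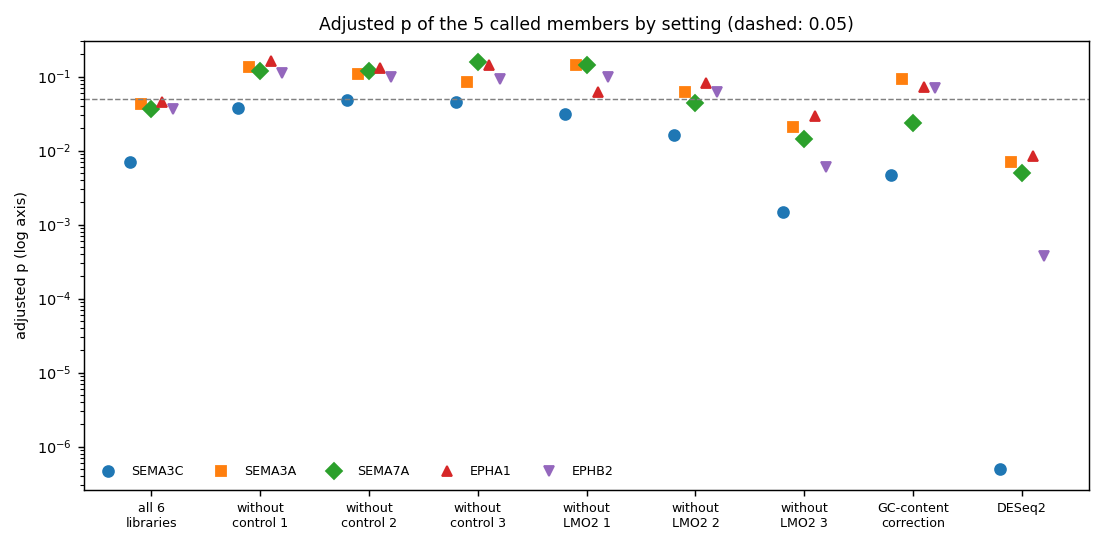
Adjusted p (log axis, dashed line at 0.05) of the 5 called members in edgeR with all 6 libraries, without each library in turn, after the GC-content correction, and in DESeq2. The SEMA3C points stay under the line in all 9 settings shown, while EPHA1, EPHB2 and SEMA3A are above it in every fit that leaves out a library but the one without U87MG-LMO2 replicate 3.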

How the data were processed

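RNA-seq libraries of U87MG-control and U87MG-LMO2 (3 each) were prepared by a commercial sequencing provider, and groups and replicate numbers were taken from the labels. For each library the authors deposited expected counts, unnormalized gene-level read estimates, and FPKM values, which they scaled to gene length and depth and rounded. The submitters' processing notes name GRCh38.p12, Bowtie2 and BWA without their roles, and versions are not given in the sources used here. Genes without a line were taken as 0. The authors' table of the comparison, which also holds their mean FPKM, log2 ratios and probabilities (the last 2 not used), supplied the symbols. Genes whose group mean differed from the library tables by over 0.001 FPKM (132 genes with a library line, no member) were left out, since 3 lines of U87MG-LMO2 replicate 3 were unreadable. Depth was 11428432 to 17892955 expected counts.

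Rounded counts of all genes were tested with edgeR 4.0.16 in R 4.3.3 (filterByExpr, TMM, glmQLFit, glmQLFTest, 2-sided, Benjamini-Hochberg over 16092 genes, called at an adjusted p under 0.05), after the test had been tested on simulated data. CPM used TMM-adjusted library sizes. The study's own rule (2-fold with a probability) was replaced by this replicated test. Alternatives were limma 3.58.1 on log2(FPKM + 1) and log2(FPKM + 0.1), DESeq2 1.42.0, a block for the replicate number, upper-quartile scaling, no filter, a minimum of 10 counts in each library, omission of each library and, chosen after seeing the data, a GC-content correction (lowess, span 0.3, GENCODE v29 transcripts, which gave a GC value for all 46 members). Values named are all called members, the 3 most abundant of each family, members over 1.5-fold without overlap, those at the limit of 3 counts, and called partner genes; other members named were chosen after their values were seen. The members and lists were chosen with earlier results of these data known.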

Additional observations from a re-analysis of the deposited data

How the results depend on the processing

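LMO2 was called in 13 alternatives (log2 fold change 7.67 to 10.0) and was removed by the minimum of 10 counts. The member median, 0.24, ran from 0.09 in limma on log2(FPKM + 1) to 0.30 without U87MG-LMO2 replicate 1. The members called higher, 3 with all libraries, became 6 in DESeq2 (adding EPHA2, PLXND1 and SEMA4D), 4 in edgeR without a filter and with at least 10 counts in each library (adding PLXND1) and 1 (SEMA3C) in limma on log2(FPKM + 1), in limma on log2(FPKM + 0.1) and after the GC-content correction. Leaving out 1 library in turn gave 1 to 6 members higher and 0 to 3 lower (edgeR; where 0 were lower, 2 or 3 were at an unadjusted p under 0.05). Of the partner genes, 6 were lower in DESeq2 and 5 after the GC-content correction, and leaving out a library gave 0 to 8 higher and 0 to 15 lower, the highest without U87MG-LMO2 replicate 3. For none of these was the cause tested.

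With the replicate number as a block, 2 members were higher (EPHB2 and SEMA3C) and 0 were lower (3 at an unadjusted p under 0.05), and 2 partner genes were higher and 3 lower. EPHA1, SEMA3A and SEMA7A lost their calls (edgeR adjusted p 0.0569, 0.0873 and 0.0996). Deviations of same-numbered libraries correlated at -0.117, -0.0034 and -0.0407 over genes, and 0 of the 6 libraries correlated best with its own number. These values gave no sign of a pairing by number. With 3 libraries a group, and U87MG-LMO2 replicate 3 apart from its group, they cannot exclude one. Without 1 library, the summed FPKM of U87MG-LMO2 minus U87MG-control was 37.0 to 50.9 for Eph receptors, -30.5 to -18.5 for semaphorins, 2.98 to 29.8 for plexins and -2.26 to 0.332 for ephrins. Members near 1 CPM rest on few counts: PLXNC1 had 7 to 18 per library.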
